A study of Homo sapiens with 12 samples.

Results

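How gilteritinib and MI-3454 alter each other's effect on RNA was examined in all 12 libraries of the study, arranged by sample title as a 2 by 2 layout in which each agent is absent or present. MOLM-13 cells, a human acute myeloid leukaemia line whose MLL gene is fused to AF9 and whose FLT3 gene carries an internal tandem duplication, received DMSO, gilteritinib, MI-3454 or the combination for 8 days, in 3 libraries per group. The cultures were seeded in triplicate from this 1 line, so p-values measure only the spread between these cultures, and no group shows either agent in cells without the fusion or the FLT3 duplication. The labels state no doses. Of 13972 genes with enough counts to be tested, 2136 had a change under the combination that departed from the sum of the changes under each agent alone, on the log2 scale and at a Benjamini-Hochberg adjusted p under 0.05 (edgeR quasi-likelihood test, 15.3% of genes tested). They were split into 1917 genes with at least 30 summed counts in every group, called well measured below, and 219 genes with fewer in at least 1 group, called near zero.

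Menin is a scaffold protein that holds MLL1 and its fusion proteins on chromatin, and MI-3454 blocks that contact. MLL fusions keep a stem-like program running in leukaemic cells, including the HOXA genes, MEIS1 and MEF2C, and loss of the contact lets such cells mature along the myeloid line. FLT3 is a receptor tyrosine kinase whose internal tandem duplication signals without ligand through STAT5, RAS and MAPK, and PI3K and AKT, and gilteritinib inhibits its kinase activity. If each agent changed a gene by the same factor whether or not the other was present, the interaction would be 0. A positive value means that RNA with the combination lay above the product of both single-agent fold changes, and a negative value that it lay below it.

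Libraries held 6472940 to 12051457 counts in genes, with the lowest depth in combination replicate 3. Reads outside annotated exons made up 28.5 to 36.5% with the combination, against 15.6 to 25.5% in the other 9 libraries, so that every combination library lay above every other library. The RN7SL1 transcript, a component of the signal recognition particle, took 1.17 to 1.66% of counts with the combination and at least 2.02% elsewhere. These measures and the combination cannot be told apart, and their part in the results was not tested. The labelled cell type was checked against 7 markers. CD33, a myeloid surface protein, was at 86.3 to 103 CPM (counts scaled to library size) in DMSO and 167 to 185 CPM with the combination. In the same order, LYZ was at 373 to 445 and 13100 to 14200 CPM. CD14 was at 0.108 to 0.568 and 13.3 to 16.1 CPM. PTPRC was at 155 to 211 and 223 to 240 CPM, and CD4 at 359 to 408 and 429 to 543 CPM. SPI1 overlapped, at 219 to 328 and 270 to 322 CPM. FLT3 was lower with the combination, at 188 to 193 CPM against 609 to 764 CPM in DMSO. The erythroid genes HBB and ALAS2 were at 0 in every library, and the T cell receptor subunit CD3E did not exceed 0.0947 CPM. Of the other T and NK cell markers, CD3D reached 3.16 CPM, and NKG7, a granule protein of cytotoxic cells, had 24.3 to 36 CPM in DMSO, 41.6 to 65.6 CPM with MI-3454 and 47.3 to 67.4 CPM with the combination. The summed level of these 3 markers was 25.8 to 37.9 CPM in DMSO, 29 to 36.6 CPM with gilteritinib, 42 to 68.6 CPM with MI-3454 and 47.6 to 68.1 CPM with the combination, and its part in the results was not tested. In bulk RNA, fewer cells of a type and less RNA per cell cannot be told apart.

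The interaction was positive in 915 genes (6.55%) and negative in 1221 (8.74%), against a median of -0.02 log2 over all tested genes. It reached 2-fold in 861 genes (6.16%), of which 453 were positive and 408 negative. Among the 12089 well measured genes, 800 were positive (6.62%) and 1117 negative (9.24%), with median interactions of 0.91 and -0.76 log2. The mean level with the combination was the highest of the 4 group means in 596 of the 800 positive genes. It was the lowest in 829 of the 1117 negative genes. These ranks of means were not tested, and the combination mean also enters the interaction by which the genes were called. CYP27A1 and CD38 count as highest although their combination level did not pass the test against DMSO. Another 179 positive and 244 negative genes stayed between the other groups. On the linear CPM scale, where changes are added instead of multiplied, 33 of the 1917 well measured genes departed in the opposite direction, and all 33 were negative on the log2 scale. BCL2 and CYBB were among them, with combination levels 27.3 and 140 CPM above the sum of linear changes. Of the 104 near-zero negative genes, 19 also departed in the opposite direction. For such genes the sign of the interaction holds on the log2 scale only.

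The negative interaction with the largest size among well measured genes was that of RHEX, which encodes a regulator of erythropoietin receptor signalling in haemopoietic cells (chr1:206052723-206102459, GRCh38). Its level was 20.8, 15.7 and 12.7 CPM in the DMSO libraries, 76.6, 86.2 and 75 CPM with gilteritinib, 15.5, 19.2 and 19.0 CPM with MI-3454, and 2.52, 3.71 and 2.56 CPM with the combination. Gilteritinib alone gave the 3 highest libraries and the combination the 3 lowest, with no overlap with any other group. The sum of single-agent changes predicted 86.4 CPM with the combination, and the interaction was -4.87 ± 0.26 log2 (SE, n = 3 libraries per group, edgeR adjusted p = 1.46e-08). RHEX rose with gilteritinib in cells without MI-3454 (2.26 log2) and fell when gilteritinib was added to MI-3454 (-2.61 log2).

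GDF11, a secreted ligand of the TGF-beta family, was likewise highest with gilteritinib and lowest with the combination. It stood at 66.9, 63.9 and 55.5 CPM in DMSO, 170, 175 and 183 CPM with gilteritinib, 50.9, 51.7 and 54.5 CPM with MI-3454, and 19.7, 21.8 and 19.3 CPM with the combination. The combination libraries lay below all others, and the interaction was -2.87 ± 0.13 log2 (edgeR adjusted p = 4.47e-09) against a prediction of 149 CPM. EPX, the peroxidase of eosinophil granules, had 36.7, 34.9 and 41.8 CPM in DMSO, 151, 150 and 134 CPM with gilteritinib, 16, 26.4 and 17 CPM with MI-3454, and 6, 6.46 and 7.67 CPM with the combination. Each of its 4 groups was separate from the others, and its interaction was -3.52 ± 0.23 log2 (edgeR adjusted p = 1.78e-07).

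GATA2, a transcription factor of haemopoietic stem cells and of the mast cell and eosinophil lineages, was at 175, 199 and 144 CPM in DMSO, 286, 317 and 316 CPM with gilteritinib, 89.4, 87.1 and 122 CPM with MI-3454, and 30.5, 21.9 and 21.3 CPM with the combination. The 4 groups did not overlap: gilteritinib was highest and the combination lowest. The interaction was -2.83 ± 0.22 log2 (edgeR adjusted p = 7.49e-07), from a predicted 177 CPM. Of 4 tested genes of the mast cell, basophil and eosinophil list, 3 had a negative interaction: EPX, PRG2 (-3.21 log2), the major basic protein of eosinophils, and TPSB2 (-3.16 log2), a mast cell tryptase. TPSB2 and its neighbour TPSAB1 are near-identical copies, so reads between them may be split in error; TPSAB1 had -1.80 log2 and did not pass the test.

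C3AR1, the receptor for the complement fragment C3a (chr12:8058302-8066471), was raised by each agent alone and not by the combination. Its libraries gave 11.8, 10.4 and 9.83 CPM in DMSO, 26.8, 18.1 and 30.5 CPM with gilteritinib, 30.7, 34.4 and 32.7 CPM with MI-3454, and 7.13, 7.2 and 6.11 CPM with the combination. Every combination library lay below every DMSO library, where the sum of both changes predicted 76.6 CPM. The interaction was -3.48 ± 0.24 log2 (edgeR adjusted p = 2.1e-07).

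A second kind of negative interaction arose where neither agent alone moved a gene much and the combination lowered it far. SCD, the stearoyl-CoA desaturase that makes monounsaturated fatty acids, was at 2279, 1797 and 1986 CPM in DMSO, 1532, 1465 and 1580 CPM with gilteritinib, 2192, 1887 and 1978 CPM with MI-3454, and 258, 231 and 191 CPM with the combination. DMSO and MI-3454 libraries overlapped, while the combination was lower than all of them, with an interaction of -2.75 ± 0.17 log2 (edgeR adjusted p = 9.26e-08). FADS2, a desaturase of polyunsaturated fatty acids, had 263, 271 and 195 CPM in DMSO, 260, 298 and 260 CPM with gilteritinib, 318, 250 and 355 CPM with MI-3454, and 53.6, 47.4 and 34.5 CPM with the combination. The first 3 groups of FADS2 overlapped and the combination lay apart from them (interaction -2.92 ± 0.23 log2, edgeR adjusted p = 8.16e-07).

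SYNPO2, which encodes an actin-binding protein, fell from 73.2, 62.2 and 79.9 CPM in DMSO to 13.3, 14.5 and 12.4 CPM with the combination, against 135, 137 and 137 CPM with gilteritinib and 63.8, 66.9 and 59.4 CPM with MI-3454. The combination was lowest and gilteritinib highest without overlap, and its interaction was -3.16 ± 0.15 log2 (edgeR adjusted p = 4.47e-09). ALDOC, a glycolytic aldolase, was at 195, 177 and 125 CPM in DMSO, 86.8, 86.2 and 100 CPM with gilteritinib, 96.9, 82.0 and 109 CPM with MI-3454, and 7.74, 6.67 and 4.12 CPM with the combination. Each agent alone lowered ALDOC, the combination libraries were far below both, and the interaction was -3.05 ± 0.26 log2 (edgeR adjusted p = 1.77e-06). SLC6A8, the creatine transporter, and LINC03040, a gene listed as protein coding in GENCODE 29, had interactions of -3.59 ± 0.41 and -3.71 ± 0.26 log2, and neither passed the test with a single agent.

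**Figure D1:**
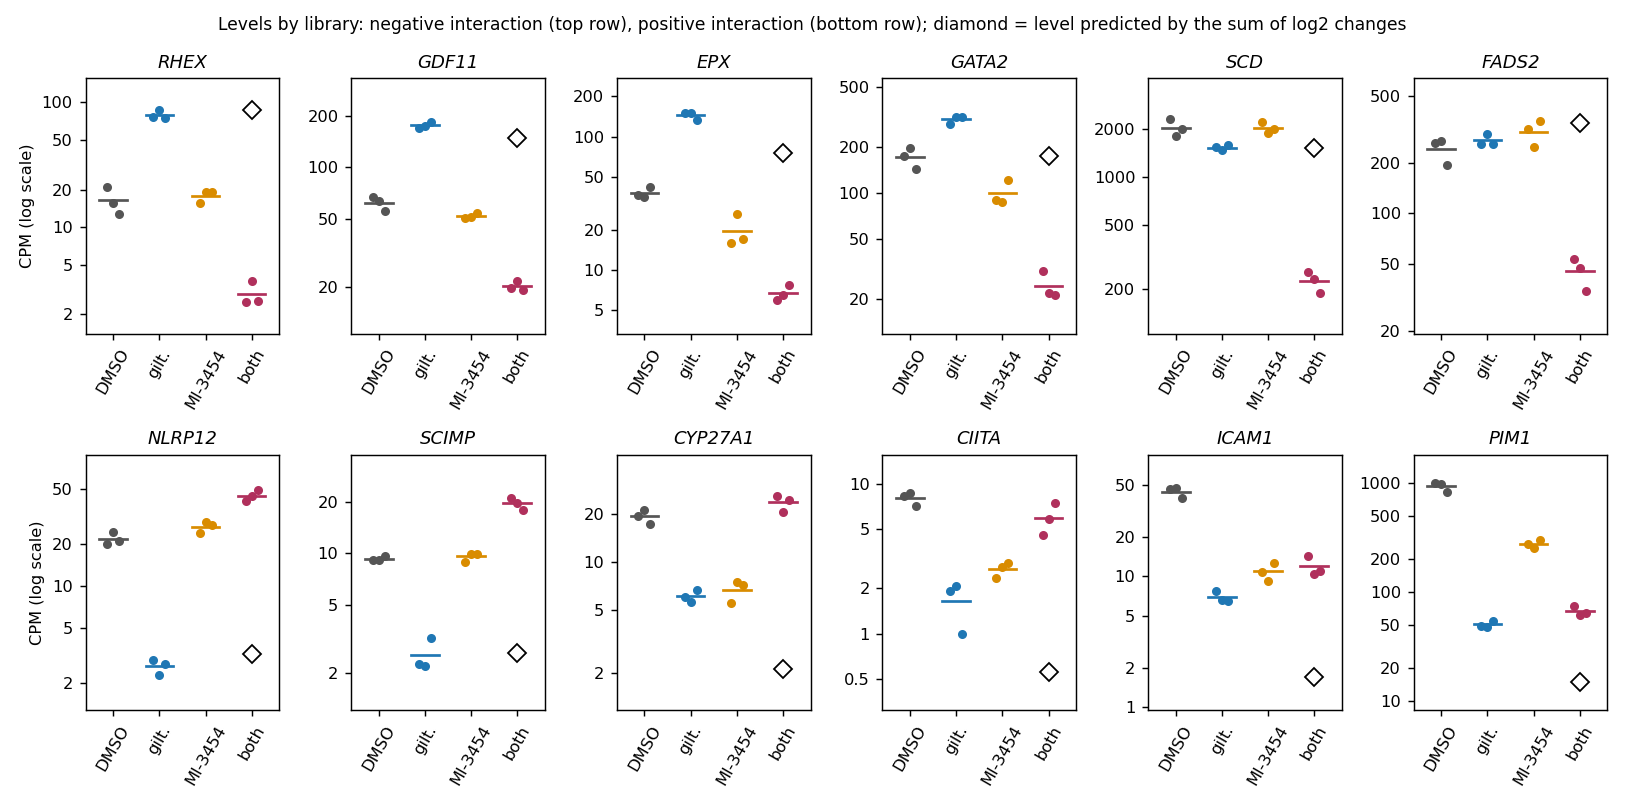
Levels in CPM (log scale) of 12 well measured genes in each library; points are libraries, lines are group means, and the open diamond is the level that the sum of both log2 changes predicts for the combination. Genes in the top row lie below the diamond with the combination, as RHEX does (86.4 CPM predicted), and genes in the bottom row lie above it, as NLRP12 does (3.26 CPM predicted).

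The positive interaction with the largest size among well measured genes was that of NLRP12, an intracellular receptor of myeloid cells that dampens inflammatory signalling (chr19:53793603-53824394). It had 20.3, 24.5 and 21.1 CPM in DMSO, 2.93, 2.31 and 2.75 CPM with gilteritinib, 24.0, 28.9 and 27.6 CPM with MI-3454, and 40.9, 45.0 and 49.2 CPM with the combination. Gilteritinib alone was far below every other library and the combination above all. Against a predicted 3.26 CPM the interaction was 3.76 ± 0.20 log2 (edgeR adjusted p = 1.46e-08): gilteritinib lowered NLRP12 by itself (-3.02 log2) and raised it on top of MI-3454 (0.74 log2).

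SCIMP, an adaptor protein of antigen-presenting cells, was at 9.10, 9.11 and 9.61 CPM in DMSO, 2.26, 2.19 and 3.19 CPM with gilteritinib, 8.93, 9.99 and 9.89 CPM with MI-3454, and 21.0, 19.8 and 18.0 CPM with the combination. DMSO and MI-3454 overlapped, with gilteritinib below and the combination above them (interaction 2.90 ± 0.22 log2, edgeR adjusted p = 4.96e-07). IL31RA, a cytokine receptor subunit, stayed between 1.5 and 2.27 CPM in the 9 libraries without the combination and reached 21.5, 16.9 and 22.6 CPM with it. Its interaction of 3.65 ± 0.30 log2 (edgeR adjusted p = 9.18e-07) had no counterpart under a single agent, where gilteritinib (-0.39 log2) and MI-3454 (-0.06 log2) did not pass the test.

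CYP27A1, the sterol 27-hydroxylase, was lowered by each agent and returned to about its starting level with both. It had 19.4, 21.0 and 17.3 CPM in DMSO, 6.02, 5.59 and 6.61 CPM with gilteritinib, 5.47, 7.41 and 7.17 CPM with MI-3454, and 26, 20.4 and 24.3 CPM with the combination. The single-agent groups overlapped with each other and lay below the other groups. The interaction was 3.47 ± 0.22 log2 (edgeR adjusted p = 9.26e-08), and the combination differed from DMSO by 0.29 ± 0.14 log2, which did not pass the test.

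CD38, an ectoenzyme of leukocyte surfaces, followed the same course: 63.0, 55.3 and 57.9 CPM in DMSO, 32.4, 32.6 and 33.8 CPM with gilteritinib, 22.0, 24.7 and 19.6 CPM with MI-3454, and 63.4, 58.6 and 81.1 CPM with the combination. Its combination and DMSO libraries overlapped, and the interaction was 2.45 ± 0.18 log2 (edgeR adjusted p = 3e-07). BCL2L11, which encodes the pro-apoptotic protein BIM, had 89.1, 78.3 and 94.3 CPM in DMSO, 41.3, 36.5 and 39.6 CPM with gilteritinib, 55.2, 60.2 and 50.3 CPM with MI-3454, and 78.3, 72.0 and 79.0 CPM with the combination. Where the sum of changes predicted 24.8 CPM, DMSO and combination libraries met at 78.3 CPM (interaction 1.62 ± 0.14 log2, edgeR adjusted p = 1.99e-06).

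Other positive interactions had a limited form, in which each agent lowered the gene and both together lowered it no further than the stronger agent alone. ICAM1, the adhesion molecule that binds leukocyte integrins (chr19:10270835-10286615), was at 46.5, 47.5 and 40.0 CPM in DMSO, 7.78, 6.56 and 6.50 CPM with gilteritinib, 10.8, 9.27 and 12.7 CPM with MI-3454, and 14.3, 10.5 and 10.9 CPM with the combination. MI-3454 and the combination overlapped, gilteritinib was lowest and DMSO highest, and the predicted level was 1.70 CPM. The interaction was 2.81 ± 0.22 log2 (edgeR adjusted p = 7.54e-07).

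PIM1, a survival kinase and a transcriptional target of STAT5, was at 1004, 970 and 816 CPM in DMSO, 49.2, 47.8 and 54.3 CPM with gilteritinib, 274, 253 and 299 CPM with MI-3454, and 74.1, 62.1 and 64.5 CPM with the combination. The combination lay between both single agents, nearer gilteritinib, with no overlap between groups. From a predicted 14.9 CPM the interaction was 2.17 ± 0.16 log2 (edgeR adjusted p = 3e-07), although the combination still left PIM1 3.79 log2 below DMSO. ARRDC4, an arrestin-domain protein, and KSR1, a scaffold of the RAS and MAPK cascade, showed the same form with interactions of 2.31 ± 0.16 and 1.66 ± 0.12 log2. TGM2, a transglutaminase, had 3.36 ± 0.47 log2 from a predicted 0.202 CPM, which is low enough that the fitted size depends on few counts.

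Promoters of these genes were searched for 4 motifs of factors that either pathway reaches. They were the STAT motif (TTC, any 3 bases, GAA), the E-box CACGTG that MYC, SREBP and TFE proteins bind, the AP-1 motif TGACTCA and the FOXO motif GTAAACA. Windows ran from 250 bases before to 50 after each gene's start in RefSeq (GRCh38.p14), both strands were read, and no motif contains another. The STAT motif stood in 11.1% of promoters of positive, 7.71% of negative well measured genes and 8.12% of tested genes without a call, against 7.66% of all 35116 promoters. CACGTG stood in 12.6% of positive, 16.4% of negative and 12.4% of genes without a call, TGACTCA in 7.18%, 3.74% and 4.36%, and GTAAACA in 3.23%, 3.17% and 3.41%. These shares are descriptions of letters in a window and were not tested. The windows below show the match in capitals for 2 genes with positive and 2 with negative interactions: ICAM1 (chr19:10271020-10271078, plus strand, STAT motif 75 bases before the start), ARRDC4 (chr15:97960468-97960523, plus strand, CACGTG at 210 bases), ALDOC (chr17:28577105-28577145, minus strand, CACGTG at 240 bases) and C3AR1 (chr12:8066461-8066517, minus strand, TGACTCA at 133 bases).
ICAM1: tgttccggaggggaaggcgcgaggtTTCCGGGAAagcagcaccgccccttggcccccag
ARRDC4: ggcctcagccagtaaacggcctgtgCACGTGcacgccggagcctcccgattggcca
ALDOC: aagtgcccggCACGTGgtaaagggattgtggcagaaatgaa
C3AR1: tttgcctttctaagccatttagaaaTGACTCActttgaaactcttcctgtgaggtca

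Near-zero genes had larger fitted interactions with larger errors. All 219 exceeded 2-fold, the 115 positive genes (6.11% of 1883 tested near-zero genes) had a median of 2.26 log2 and the 104 negative genes (5.52%) a median of -2.60 log2. Their median standard errors were 0.583 and 0.601 log2, against 0.204 and 0.174 log2 for well measured positive and negative genes. Of the 115 positive genes, 100 had a prediction under 30 counts with the combination, and 13 a prediction under 3 counts, the floor used here for a group's sum. For a gene that each agent alone takes close to 0, the fitted interaction has no measurable lower level behind it. Because genes were split by their lowest group, genes that fell far are more often classed as near zero.

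IL2RA, the alpha chain of the interleukin-2 receptor and a STAT5 target, is such a gene. It was at 58.8, 54.6 and 52.3 CPM in DMSO, 0.0836, 0 and 0 CPM with gilteritinib, 1.12, 1.03 and 1.09 CPM with MI-3454, and 0, 0 and 0.284 CPM with the combination. In summed counts this was 1706, 1, 30 and 2, where the sum of changes predicted 0.0153 counts, and the fitted interaction was 6.51 ± 1.75 log2 (edgeR adjusted p = 0.0206). The combination and gilteritinib overlapped, with a ratio of 2.09 and a 95% counting interval from 0.109 to 123. CD80, a costimulatory ligand, had 181, 2, 0 and 2 counts in the same order and a fitted 8.89 ± 2.32 log2 (edgeR adjusted p = 0.0205); with MI-3454 it was at least 54.6-fold below DMSO. IL2RA lost its call without combination replicate 3 and CD80 without combination replicate 2.

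HLA-DRA, the alpha chain of the class II molecule HLA-DR, had 30.8, 25.6 and 28.5 CPM in DMSO, 0.167, 0 and 0.551 CPM with gilteritinib, 1.56, 0.927 and 1.09 CPM with MI-3454, and 0.522, 0.423 and 0.426 CPM with the combination. Summed counts were 873, 7, 33 and 13 against a predicted 0.283, and the fitted interaction was 5.48 ± 0.75 log2 (edgeR adjusted p = 0.000189). Gilteritinib and the combination overlapped, so their levels were separated from DMSO and not from each other.

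Other near-zero genes were low in DMSO and with gilteritinib and had their highest level with the combination. OLR1, a scavenger receptor for oxidised lipoprotein, had 0.637, 0.475 and 0.324 CPM in DMSO, 0.0836, 0.122 and 0.11 CPM with gilteritinib, 1.12, 2.47 and 2.07 CPM with MI-3454, and 11.7, 12.3 and 16.3 CPM with the combination. All 3 combination libraries lay above all others, with 365 counts where 11.6 were predicted (interaction 4.91 ± 0.74 log2, edgeR adjusted p = 0.000418), and the combination was 6.85-fold above MI-3454 (95% counting interval 5.13 to 9.32). S100A8, a calcium-binding protein of neutrophils and monocytes, summed to 24, 6, 239 and 704 counts (3.43 ± 0.52 log2), and MI-3454 alone was 11-fold above DMSO (95% counting interval 7.22 to 17.5). TLR5, the receptor for bacterial flagellin, summed to 13, 8, 5 and 49 counts (3.80 log2), which is a low level in every group.

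On the negative side, 96 of 104 near-zero genes had fewer than 30 counts with the combination. XIRP1, an actin-binding protein of muscle, had 24.6, 24.5 and 16.9 CPM in DMSO, 15.1, 15.3 and 12 CPM with gilteritinib, 2.12, 3.6 and 3.70 CPM with MI-3454, and 0 in all 3 combination libraries. The sum of changes predicted 56.7 counts, so the observed level was at least 18.9-fold lower if that prediction is taken as exact. ADAMTS7, a secreted metalloprotease, had 20, 171, 6 and 0 counts in DMSO, gilteritinib, MI-3454 and the combination, at least 19-fold below its prediction, and lost its call without MI-3454 replicate 3. INHBE, a subunit of activin E, had 223, 67, 73 and 0 counts, at least 8.05-fold below a prediction taken as exact.

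AXL, a receptor tyrosine kinase, summed to 868, 839, 162 and 24 counts in the same order. It was 1.02-fold higher with gilteritinib than with DMSO (95% counting interval 0.924 to 1.12) and, on top of MI-3454, 6.78-fold lower (4.40 to 10.9; interaction -2.79 log2). DUSP8, a MAP kinase phosphatase, summed to 429, 375, 194 and 3 counts, 65.0-fold below MI-3454 with the combination (21.9 to 318). These genes were high in 2 or more groups and are near zero only where the combination took them. CR1, complement receptor 1, was instead low in DMSO: its 4, 27, 421 and 115 counts gave a fitted -4.58 ± 0.71 log2, with the combination 3.68-fold below MI-3454 (2.99 to 4.56).

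The boundary of 30 counts divides genes of like size. Just under it, PRG2 had 29 counts in DMSO (-3.21 log2), and EFCAB12 (2.18 log2) and FZD8 (1.36 log2) had 29 with gilteritinib. Just inside it, CCL3 had 30 counts with the combination (-3.42 log2) and HLA-DQB1 30 with gilteritinib (1.58 log2). Between 26 and 29 counts lay 22 of the called genes, and between 30 and 33 lay 18.

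**Figure D2:**
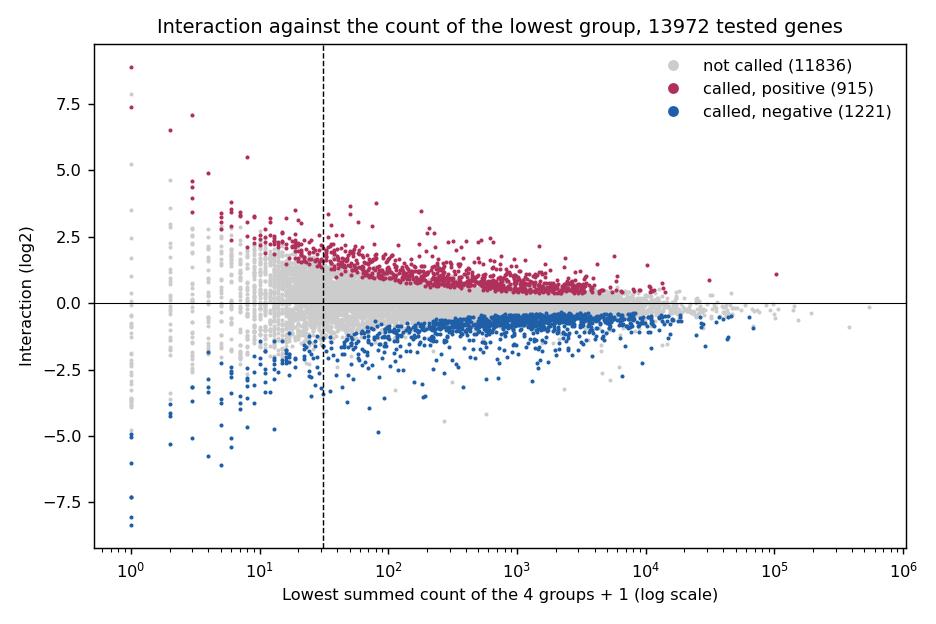
Fitted interaction (log2, vertical axis) of each tested gene against the summed count of its lowest group plus 1 (log scale, horizontal axis), with called genes coloured by sign and the boundary of 30 counts dashed. The 219 called genes left of the boundary spread further from 0 than the 1917 to its right.

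A stricter form of interaction is a reversal, in which an agent changed a gene in one direction alone and in the other direction on top of the second agent, with both changes past the test. These contrasts share no library. On top of MI-3454, gilteritinib raised 15.1% and lowered 16.5% of all tested genes, and MI-3454 on top of gilteritinib raised 26.8% and lowered 27.2%. The effect of gilteritinib reversed in 245 genes (1.75%): 139 rose with gilteritinib alone and fell when it was added to MI-3454, and 106 fell and then rose. RHEX, EPX, GDF11, C3AR1, CCL3L3 and FZD7 (-2.70 log2), a Wnt receptor, led the first kind. CYP27A1, ITGA6, CIITA, ARHGAP44 (2.22 log2), DNASE2 (2.34 log2) and DHRS3 (2.62 log2) led the second. DNASE2, the acid nuclease of lysosomes, had 25.4, 28.7 and 23.0 CPM in DMSO, 10.9, 10.9 and 10.8 CPM with gilteritinib, 27.8, 37.0 and 39.1 CPM with MI-3454, and 77.8, 73.2 and 71.3 CPM with the combination. The gilteritinib libraries were the lowest and the combination libraries the highest.

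The effect of MI-3454 reversed in 124 genes (0.887%), 69 of which rose alone and fell on top of gilteritinib and 55 the other way. ADAMTS1, a secreted metalloprotease (-2.86 log2), PKIB, an inhibitor of protein kinase A (-2.71 log2), and MT1G, a metallothionein (-2.30 log2), rose with MI-3454 and fell when it was added to gilteritinib. ADAMTS1 stood at 1.73, 1.90 and 1.40 CPM in DMSO, 6.35, 7.66 and 6.17 CPM with gilteritinib, 4.35, 5.66 and 6.09 CPM with MI-3454, and 2.78, 2.65 and 3.41 CPM with the combination. All treated groups of ADAMTS1 lay above DMSO, with the combination lowest of them. IL21R, a cytokine receptor (2.18 log2), and ITGA6, the integrin alpha 6 subunit (3.04 ± 0.30 log2), fell with MI-3454 and rose when it was added to gilteritinib. The count of gilteritinib reversals depended on single libraries: it was 155 without combination replicate 2, 160 without combination replicate 3 and 156 without gilteritinib replicate 1.

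**Figure D3:**
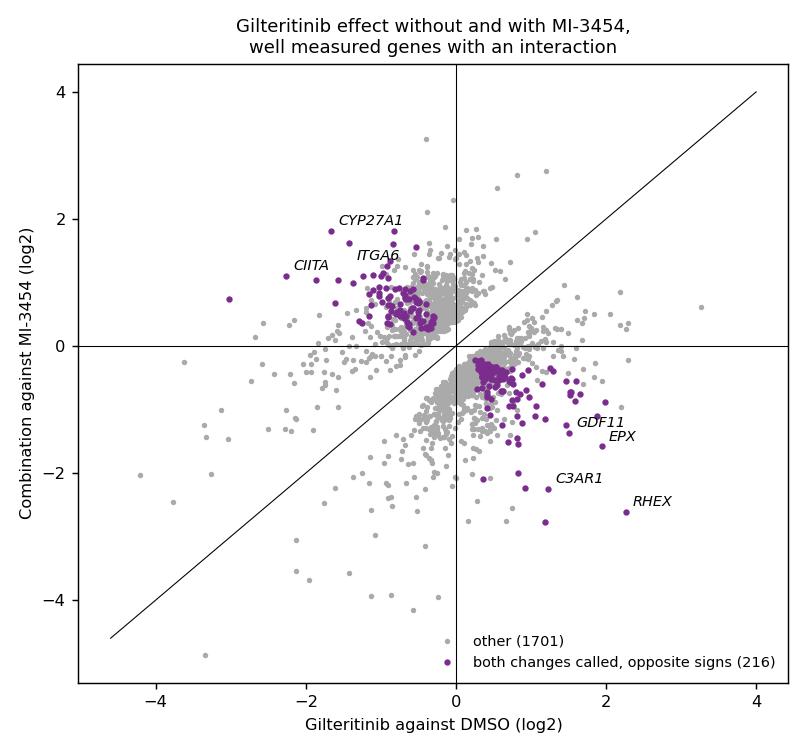
Effect of gilteritinib against DMSO (horizontal, log2) and on top of MI-3454 (vertical, log2) for the 1917 well measured genes with an interaction; the 216 reversed genes are purple. Points in the lower right were raised by gilteritinib alone and lowered by it in the presence of MI-3454, as RHEX was (2.26 and -2.61 log2), and points in the upper left the opposite.

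Pathway lists, each with the number of its tested members, describe where called genes fell. The lists were written with earlier results of these data known, so they are descriptions and not tests of a function. Over all tested genes the interaction was positive in 6.55% and negative in 8.74%. Against DMSO, gilteritinib raised 8.12% and lowered 9.23% of all tested genes, MI-3454 raised 13.4% and lowered 12.7%, and the combination raised 29.2% and lowered 28.3%. Among direct signalling outputs of FLT3, the STAT5 target list split: of 15 tested genes 4 were positive (IL2RA, PIM1, SOCS1 at 1.69 and CISH at 0.87 log2) and 5 negative (SOCS2, PIM2 at -1.21, CCND3 at -0.87, PIM3 at -0.56 and MCL1 at -0.42 log2), with a list median of -0.41 log2. SOCS1, a feedback inhibitor of JAK and STAT signalling, had 42.7, 53.7 and 35.6 CPM in DMSO, 11.3, 13.9 and 14.6 CPM with gilteritinib, 12.6, 17.5 and 28.3 CPM with MI-3454, and 19.8, 16.8 and 19.6 CPM with the combination. All treated groups of SOCS1 lay below DMSO, and the combination overlapped MI-3454. SOCS2, of the same family, fell from 243, 213 and 235 CPM in DMSO and 129, 118 and 123 CPM with gilteritinib to 14, 18.2 and 15.5 CPM with MI-3454 and 2.87, 3.71 and 4.12 CPM with the combination, so its 4 groups formed separate steps (interaction -1.29 log2). The negative count of the STAT5 list was 3 under 7 of the alternatives, including those without DMSO replicate 3, gilteritinib replicate 1, gilteritinib replicate 3, MI-3454 replicate 1, combination replicate 2 and combination replicate 3.

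Of 22 tested genes of MAPK feedback and output, 10 were negative and 1 positive, DUSP1 (0.84 log2), with a median of -0.57 log2. The negative genes were the transcription factors EGR2 (-1.91), FOSL1 (-1.79), JUN (-1.73), EGR3, ETV4 and ETV5 (-1.13), FOS, and the feedback inhibitors DUSP6 (-1.05), SPRED2 and SPRY2. FOSL1 had 11.9, 16.6 and 12 CPM in DMSO, 15, 24.2 and 15.5 CPM with gilteritinib, 9.60, 11.4 and 17 CPM with MI-3454, and 5.04, 5.08 and 4.40 CPM with the combination. Its other groups overlapped and the combination lay below them. JUN, a subunit of AP-1, rose with MI-3454 alone to 27.1, 41.3 and 48.2 CPM from 16.1, 25.2 and 19.1 CPM in DMSO, and had 17.8, 16.5 and 13.6 CPM with the combination. EGR2 and EGR3 were near zero, with 16 and 9 summed counts with the combination. EGR2 lost its call without MI-3454 replicate 3 and without the 4 libraries highest in RN7SL1, and EGR3 under 11 of 20 alternatives. DUSP1 lost its call without DMSO replicate 2 or 3, any 1 gilteritinib library, MI-3454 replicate 1 or 2, or combination replicate 2 or 3.

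Among SRC family kinases, 4 of 6 tested genes were positive, among them FGR (1.68 log2), SRC (1.02 log2) and FYN (0.89 log2), and YES1 was negative (-0.95 log2). FGR, a kinase of mature myeloid cells, rose from 32.8, 37.8 and 45.3 CPM with MI-3454 to 117, 104 and 123 CPM with the combination, while DMSO and gilteritinib libraries overlapped between 2.75 and 3.89 CPM. Of 14 cytokine receptor genes 4 were positive (IL2RA, IL7R at 2.21, IL4R at 0.63 and TNFRSF1B at 0.45 log2) and none negative; TNFRSF1B lost its call under 6 of 21 alternatives, and 1 gene was negative without combination replicate 1. IL7R, the alpha chain of the interleukin-7 receptor, had 27.0 to 30.6 CPM in DMSO and at most 1.10 CPM in the gilteritinib and combination libraries, again a gene near its lower limit.

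The MLL program departed mostly downward outside the HOXA cluster. Of 21 tested MLL-fusion targets outside HOXA, 12 were negative and 1, RUNX2, positive (0.49 log2), with a list median of -0.42 log2. MEIS1, the homeobox partner of HOXA9, had 68.1, 62.0 and 73.1 CPM in DMSO, 91.0, 95.8 and 91.8 CPM with gilteritinib, 12.2, 11.4 and 9.35 CPM with MI-3454, and 4.61, 6.78 and 3.98 CPM with the combination. Gilteritinib raised MEIS1 alone (0.46 log2) and lowered it on top of MI-3454 (-1.09 log2), giving an interaction of -1.54 ± 0.21 log2 (edgeR adjusted p = 0.000173). MEF2C, a transcription factor of leukaemic self-renewal, fell stepwise from 386, 328 and 390 CPM in DMSO through 71.7, 77.1 and 68.3 CPM with MI-3454 to 18.4, 20.4 and 22.2 CPM with the combination, with 303, 294 and 288 CPM under gilteritinib (interaction -1.52 ± 0.14 log2). No group of MEF2C overlapped another, and gilteritinib alone lay 0.32 log2 below DMSO.

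MYC (-0.79 log2, edgeR adjusted p = 0.00458) and BCL2 (-0.50 log2, edgeR adjusted p = 0.0169) were also among the negative genes. HOXA9 itself had -0.24 log2 (edgeR adjusted p = 0.223), and of 10 tested HOXA genes only HOXA7 (-1.06 log2) and HOXA11 (-0.90 log2) were called. HOXA7 lost its call without the 4 libraries highest in RN7SL1. FLT3 (0.17 log2, edgeR adjusted p = 0.49) and MEN1, which encodes menin (-0.43 log2, edgeR adjusted p = 0.174), did not pass the test. None of 10 tested genes of the menin and MLL1 complex passed it. Without DMSO replicate 2, 2 genes of the complex were negative and MEN1 gained a call, as also with limma voom and quality weights and without the 4 libraries highest in RN7SL1. In the same list 1 gene was positive without gilteritinib replicate 1 or MI-3454 replicate 2. BCL2 lost its call without gilteritinib replicate 1, MI-3454 replicate 1 or combination replicate 2. The count of negative MLL-fusion targets was 7 with total counts as the scaling and 7 without gilteritinib replicate 1.

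Genes of DNA replication and mitosis departed downward. Of 25 tested S phase genes 21 were negative and none positive, with a median of -0.74 log2, and in all 21 the combination had the lowest level. Gilteritinib alone raised 12 of the 25 genes and the combination lowered 17 of them against DMSO, and in 8 genes the gilteritinib effect reversed. MCM2, a subunit of the replicative helicase, had 158, 196 and 186 CPM in DMSO, 256, 313 and 253 CPM with gilteritinib, 175, 161 and 203 CPM with MI-3454, and 141, 126 and 115 CPM with the combination. Gilteritinib was highest and the combination lowest, with no overlap with DMSO on either side (interaction -1.10 ± 0.17 log2, edgeR adjusted p = 0.000548). GINS2, another helicase component (-1.25 log2), and RRM2, the small subunit of ribonucleotide reductase (-1.07 log2), were of like size.

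Of 23 tested G2 and M phase genes 19 were negative and none positive (median -0.69 log2). Here the combination was lowest in 9 and between the other groups in 10, and gilteritinib alone raised 19. PLK1, a mitotic kinase, had 75.7, 86.3 and 69.9 CPM in DMSO, 124, 144 and 117 CPM with gilteritinib, 93.0, 69.4 and 116 CPM with MI-3454, and 84.8, 66.1 and 68.1 CPM with the combination, which overlapped DMSO (interaction -1.07 ± 0.22 log2). KIF20A, a mitotic kinesin, had -1.16 log2 and UBE2C, a ubiquitin-conjugating enzyme of mitotic exit, -1.15 log2. With total counts as the scaling 12 members of this list were negative. Of 39 tested replication-dependent histone genes 25 were negative (median -1.33 log2), a count that lay between 8 and 38 across alternatives. It was 15 without DMSO replicate 1, 13 without DMSO replicate 3, 11 without gilteritinib replicate 2, 11 without combination replicate 2 and 9 without combination replicate 3. Histone genes include near-identical copies, so single histone genes are uncertain.

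**Figure D4:**
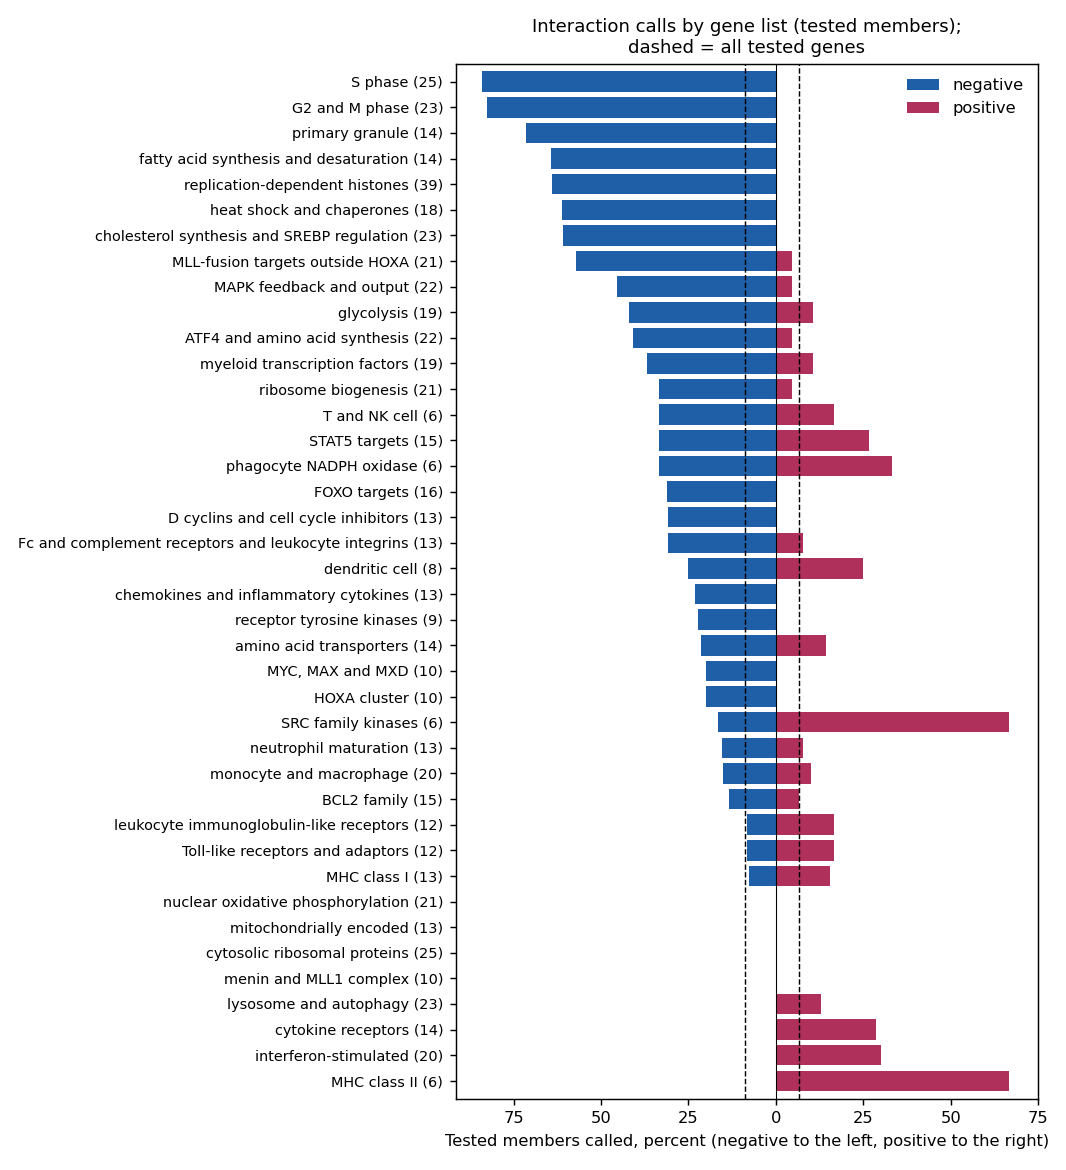
Percent of tested members of each gene list (number in brackets) with a negative interaction (blue, to the left) or a positive one (red, to the right); dashed lines mark all tested genes at 8.74% negative and 6.55% positive. S phase and G2 and M phase lists reach furthest to the left, MHC class II and SRC family kinases, with 6 genes each, furthest to the right.

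Lipid synthesis genes departed downward. Of 23 tested genes of cholesterol synthesis and its regulation by SREBP, 14 were negative and none positive (median -0.74 log2), and the combination was lowest in all 14. Gilteritinib alone lowered 6 of the 23, MI-3454 alone 5, and the combination 22. INSIG1, the sterol-sensing retention protein of SREBP, had 502, 357 and 449 CPM in DMSO, 377, 327 and 357 CPM with gilteritinib, 506, 418 and 393 CPM with MI-3454, and 108, 112 and 94.8 CPM with the combination. Its other groups overlapped far above the combination (interaction -1.76 ± 0.18 log2, edgeR adjusted p = 1.39e-05). HMGCS1, the synthase that commits acetyl-CoA to the pathway, had 373, 262 and 315 CPM in DMSO, 208, 177 and 212 CPM with gilteritinib, 234, 185 and 168 CPM with MI-3454, and 43.1, 41.7 and 46.9 CPM with the combination (interaction -1.49 ± 0.20 log2).

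Of 14 tested genes of fatty acid synthesis and desaturation 9 were negative and none positive (median -0.83 log2). Beside FADS2 and SCD these included SREBF1 (-1.99 log2), the transcription factor that drives the pathway, FADS1 (-1.84 log2) and FASN (-1.69 log2), the fatty acid synthase. SREBF1 had 391, 479 and 381 CPM in DMSO, 471, 531 and 458 CPM with gilteritinib, 409, 411 and 534 CPM with MI-3454, and 148, 145 and 104 CPM with the combination, whose libraries lay below all others. Of 19 glycolysis genes 8 were negative and 2 positive, the hexokinases HK1 (0.70 log2) and HK2 (0.64 log2). Beside ALDOC, ENO2 (-1.84 log2), GAPDH (-0.93 log2) and LDHA (-0.86 log2) had the largest negative values.

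The amino acid response, driven by ATF4, was already lowered by each agent: of 22 tested genes gilteritinib lowered 19, MI-3454 19 and the combination 21. Even so 9 were negative and only CEBPB positive (1.22 log2), with a median of -0.58 log2. PHGDH, the first enzyme of serine synthesis, had 307, 397 and 338 CPM in DMSO, 85.5, 97.8 and 84.7 CPM with gilteritinib, 207, 218 and 276 CPM with MI-3454, and 20.2, 18.8 and 15.2 CPM with the combination, in 4 separate groups (interaction -1.72 ± 0.19 log2, edgeR adjusted p = 2.46e-05). CHAC1, which degrades glutathione, fell from 122, 139 and 94.7 CPM in DMSO to 0.522, 1.48 and 0.568 CPM with the combination (interaction -1.91 ± 0.41 log2). SLC7A11, the cystine importer, went the other way: 63.9, 42.9 and 72.6 CPM in DMSO, 18.6, 14.8 and 17.2 CPM with gilteritinib, 61.0, 66.5 and 40.5 CPM with MI-3454, and 70.5, 78.1 and 88.0 CPM with the combination. Gilteritinib alone was below all other groups of SLC7A11, and the interaction was 2.31 ± 0.27 log2 (edgeR adjusted p = 4.63e-05).

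**Figure D5:**
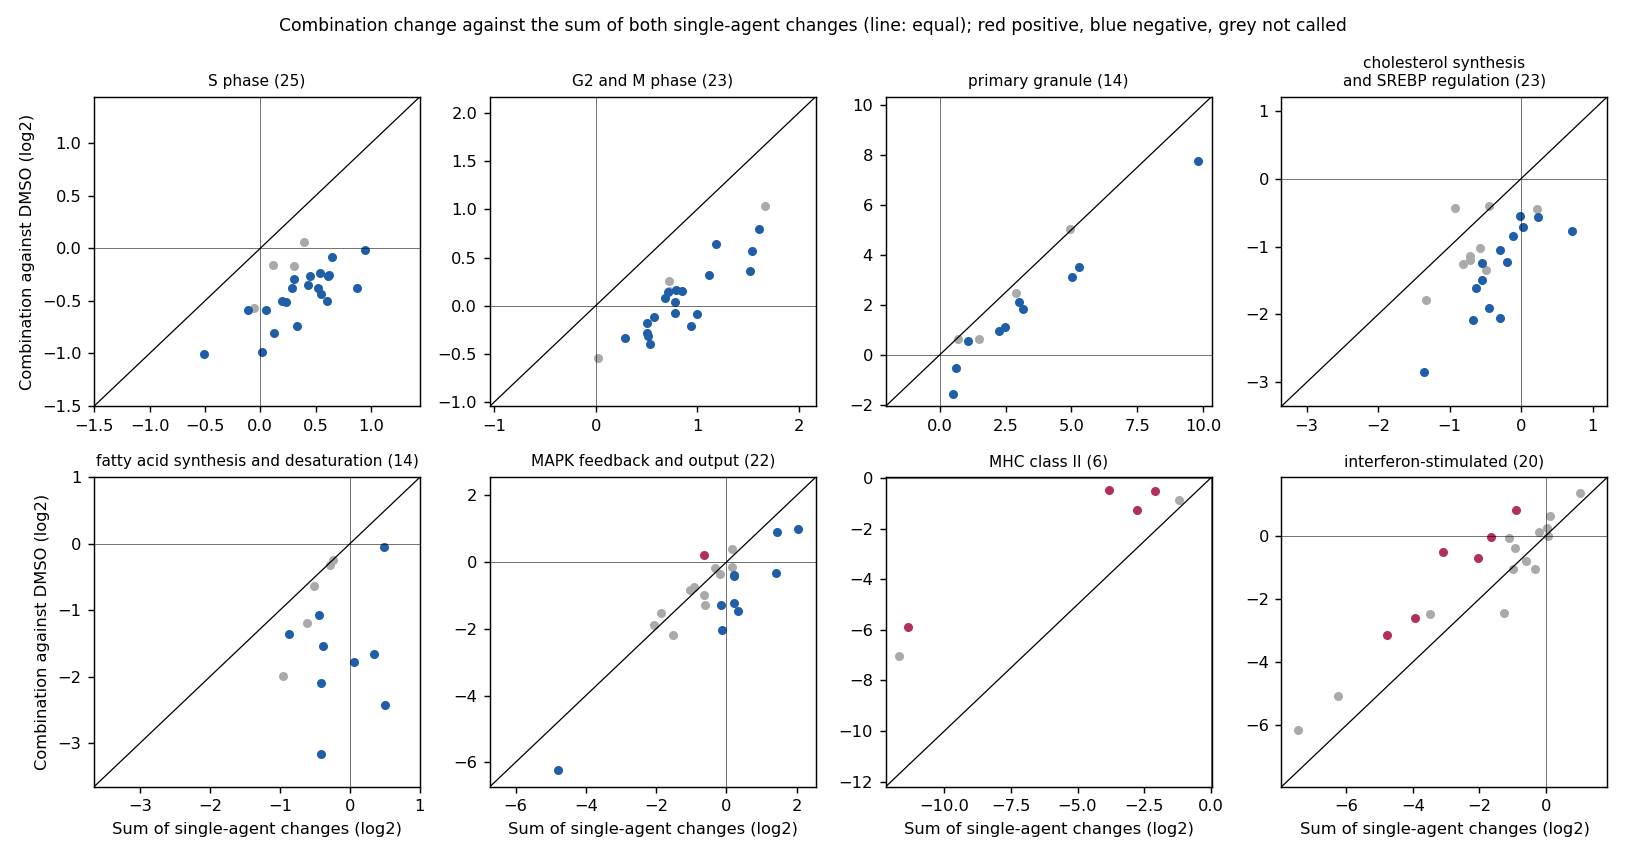
Change with the combination against DMSO (vertical, log2) and sum of both single-agent changes (horizontal, log2) for the tested members of 8 gene lists; the line marks equality, blue points are negative interactions, red points positive and grey points not called. Cholesterol and fatty acid genes drop below the line near a horizontal value of 0, while MHC class II genes lie above it.

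Maturation genes showed both signs. Of 14 tested genes of the primary granule, made by promyelocytes, 10 were negative and none positive (median -1.22 log2), although gilteritinib alone raised 9, MI-3454 13 and the combination 12. MPO, the granule peroxidase, had 31.5, 33.2 and 35.3 CPM in DMSO, 58.2, 57.5 and 60.5 CPM with gilteritinib, 641, 523 and 663 CPM with MI-3454, and 319, 270 and 265 CPM with the combination. All groups were separate, and the combination lay below MI-3454 and above gilteritinib (interaction -1.91 ± 0.15 log2, edgeR adjusted p = 9.05e-07). BPI, a bactericidal granule protein (-1.77 log2), had 327, 310 and 369 CPM with MI-3454 and 335, 300 and 240 CPM with the combination, which overlapped, against a predicted 995 CPM. CEBPE, the transcription factor of granule maturation, had 2.27, 2.09 and 1.51 CPM in DMSO, 6.6, 8.63 and 6.28 CPM with gilteritinib, 8.82, 11.9 and 14 CPM with MI-3454, and 9.39, 7.30 and 8.10 CPM with the combination. The combination overlapped each single agent, and all treated groups lay above DMSO (interaction -2.33 ± 0.31 log2, edgeR adjusted p = 0.000146).

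Of 20 tested monocyte and macrophage genes 2 were positive (MS4A6A at 1.46 and CCR2 at 1.41 log2) and 3 negative (FCGR1A at -1.59, CX3CR1 at -0.95 and CYBB at -0.62 log2). CYBB lost its call under 14 of 21 alternatives. The negative count was 6 without MI-3454 replicate 3, and 7 with limma voom and quality weights or without the 4 libraries highest in RN7SL1. ITGAM, the integrin subunit CD11b, had 0.37 log2 (edgeR adjusted p = 0.0913). Among 13 chemokine and inflammatory cytokine genes CCL3, CCL5 (-2.21 log2) and TNF (-1.74 log2) were negative. CCL3, a chemokine of macrophages, had 11.6, 12.9 and 13.2 CPM in DMSO, 18.3, 22.4 and 19.3 CPM with gilteritinib, 3.68, 8.34 and 9.67 CPM with MI-3454, and 1.13, 1.38 and 0.568 CPM with the combination, in 4 groups that did not overlap. CCL3L3, at -3.96 ± 0.27 log2, is a near-identical copy of CCL3, and their reads may not be separable.

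Antigen presentation by MHC class II had a list median of 2.47 log2, over 6 tested genes, of which 4 were positive and none negative. Of the 6 genes, 2 were near zero, HLA-DRA among them, and their fitted sizes enter this median. CIITA, the master activator of class II genes (chr16:10866222-10943021), had 8.28, 8.64 and 7.13 CPM in DMSO, 1.92, 2.07 and 0.991 CPM with gilteritinib, 2.34, 2.78 and 2.94 CPM with MI-3454, and 4.52, 5.82 and 7.39 CPM with the combination. Both single agents lay below the combination, and 1 combination library fell within the DMSO range. The interaction was 3.36 ± 0.36 log2 (edgeR adjusted p = 1.51e-05), and each agent's effect reversed in the presence of the other.

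HLA-DQB1 had 4.37, 5.22 and 4.21 CPM in DMSO, 1.09, 1.46 and 0.551 CPM with gilteritinib, 5.36, 4.22 and 4.89 CPM with MI-3454, and 3.74, 2.86 and 2.98 CPM with the combination (1.58 ± 0.37 log2). HLA-DMA, which loads peptides on class II molecules, had 1.51 ± 0.34 log2, whereas HLA-DRB1 had 4.65 ± 2.31 log2 (edgeR adjusted p = 0.186) and CD74, the invariant chain, 0.32 log2. Gilteritinib and MI-3454 each lowered 5 of the 6 genes and the combination 4, so class II RNA other than CIITA remained mostly below DMSO. HLA genes are polymorphic and alike, and reads can be assigned to the wrong copy.

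Of 20 tested interferon-stimulated genes 6 were positive and none negative, with a median of 0.78 log2: RSAD2 (2.56), OAS1 (1.71), IFIT2 (1.65), IRF9 (1.62), IFIT3 (1.34) and MX1 (1.33 log2). Gilteritinib alone lowered 11 of the 20, MI-3454 10 and the combination 11. OAS1, a sensor of double-stranded RNA, had 3.73, 6.55 and 4.10 CPM in DMSO, 2.17, 2.92 and 3.19 CPM with gilteritinib, 4.24, 3.71 and 5.54 CPM with MI-3454, and 8.69, 8.36 and 7.96 CPM with the combination, above all other libraries. RSAD2, which encodes the antiviral protein viperin, had 2.82, 3.42 and 3.24 CPM in DMSO, 1.59, 0.851 and 0.881 CPM with gilteritinib, 0.893, 1.03 and 1.09 CPM with MI-3454, and 2, 2.43 and 2.13 CPM with the combination. Both single agents overlapped below the combination, which lay below DMSO (2.56 ± 0.41 log2, edgeR adjusted p = 0.000687). Among 23 lysosome and autophagy genes TFEB, their transcriptional regulator (1.57 log2), CTSH (1.52 log2) and CTSB (0.49 log2), both cathepsins, were positive and none was negative, with 1 negative without DMSO replicate 2 or MI-3454 replicate 2.

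Several housekeeping lists held no called gene. None of 25 cytosolic ribosomal protein genes (median -0.23 log2) and none of 21 nuclear genes of oxidative phosphorylation (median -0.22 log2) passed the test. Without the 4 libraries highest in RN7SL1 in their groups, 5 of the ribosomal protein genes and 6 of the oxidative phosphorylation genes were negative. Of the oxidative phosphorylation genes, 3 were negative without combination replicate 1, 2 without MI-3454 replicate 2 and 1 without DMSO replicate 2, and 1 was positive without DMSO replicate 1. Over all mitochondrially encoded transcripts, including those outside the list, gilteritinib replicate 2 held 2.84% of its counts. The next highest was DMSO replicate 2 at 1.37%. The 13 listed mitochondrially encoded genes had a median of -2.64 log2 with none called. Of these genes, 11 were negative without DMSO replicate 2, 2 without gilteritinib replicate 1, gilteritinib replicate 3 or MI-3454 replicate 2, 11 without the 4 libraries highest in RN7SL1, and 12 with no filter on low counts. Of 18 heat shock and chaperone genes 11 were negative (median -0.51 log2), with 6 without combination replicate 2 and 7 without combination replicate 3. Of 21 ribosome biogenesis genes 7 were negative and 1, NOP2, positive (1.67 log2, lost under 9 of 20 alternatives), with a list median of -0.38 log2, and the negative count lay between 1 and 13 across alternatives, with 1 without combination replicate 3, 2 without combination replicate 2, 2 without DMSO replicate 1, 3 without DMSO replicate 3, 3 without gilteritinib replicate 2 and 4 without MI-3454 replicate 1.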

How the data were processed

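The 12 libraries of MOLM-13 RNA fell into 4 groups of 3 by title; per the labels, RNA was depleted of ribosomal RNA before TruSeq library preparation. The authors deposited whole-number counts of reads for 60668 Ensembl gene IDs per library, with no normalization, plus 5 summary lines that were left out of all totals. Per the submitters' processing notes cutadapt 2.1, STAR 2.7.1a, HTSeq 0.11.2, DESeq2 and GRCh38 were used; the annotation release and strand setting were not stated there, so antisense and overlapping genes are uncertain. A treatment label varies in the trailing number of MI-3454 between libraries, and the titles were followed. Symbols were found for 60340 IDs, and positions and biotypes for 58561 in GENCODE 29.

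edgeR 4.0.16 (R 4.3.3) fitted 2 treatment terms and their product to all 12 libraries, with TMM scaling and its expression filter, 8 residual degrees of freedom and a common dispersion of 0.0138. The product term is the interaction; its standard error is the estimate divided by the root of F. CPM used TMM-scaled library sizes, and predicted levels multiply both single-agent ratios of mean CPM. Counting intervals cover counting error at 95% only. On simulated counts for 13972 genes, 55 of 100 genes with a 2-fold and 91 of 100 with a 4-fold interaction were recovered, with 4 false calls. These counts were drawn independently, without differences in library quality or deviations shared between libraries. The simulation therefore cannot give the number of false calls in the real libraries. Alternatives used limma 3.58.1, DESeq2 1.42.0, other scalings and filters, and fewer libraries.

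Genes were named by rule: the 10 largest well measured protein-coding interactions of each sign, 5 more of each sign by p, 5 near-zero genes of each sign with at least 5 CPM, a set of anchors, and up to 4 called members per list. Added after values were seen were the 6 reversed genes per agent and direction whose smaller effect was largest, members of counts of 5 or fewer, and examples that fell outside the rule. The members, the 45 gene lists and the tests were chosen with earlier results of these data known. A few genes are not reported here.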

Additional observations from a re-analysis of the deposited data

Results flagged for a closer look

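Genes whose response to 1 agent depended on the other, by the test of that difference itself, numbered 2136 for the interaction. Full reversal, with both opposite changes past the test, was found for gilteritinib in 245 genes and for MI-3454 in 124 genes. Reads outside annotated exons, which enter no gene comparison, averaged 32.6% ± 4.02 (SD, n = 3) with the combination, against 18.1% ± 2.03 with DMSO, 17% ± 1.24 with gilteritinib and 21.0% ± 4.13 with MI-3454. Their part in the interaction was not tested.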

How the results depend on the processing

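None of the genes named by rule or as reversals changed the sign of its interaction under any alternative; other list members were followed as counts only. With total counts as the scaling, 808 genes were negative, 714 of them well measured, the positive share of calls was 58.1% against 42.8%, and the median interaction of all genes was 0.114 log2 instead of -0.02. With limma voom and quality weights there were 3644 calls (1523 positive, 2121 negative), 3243 well measured (1282 positive, 1961 negative) and 401 near zero, and 486 gilteritinib reversals. Without the 4 libraries highest in RN7SL1 in their groups there were 3478 calls, 2193 negative, 3266 well measured, 2099 of these negative, with 537 gilteritinib and 231 MI-3454 reversals. The near-zero count was 80 at a boundary of 10 counts and 474 at 100; a filter of 30 counts in every group leaves no near-zero gene. Leaving out 1 library at a time gave 1305 to 2698 calls, 590 to 1167 positive, 715 to 1636 negative, 1157 to 2459 well measured (517 to 1021 positive, 640 to 1514 negative), 148 to 248 near zero, 631 to 1102 of at least 2-fold, and 155 to 288 gilteritinib and 90 to 145 MI-3454 reversals. The count fell to 1365 without combination replicate 2 and 1305 without combination replicate 3; the cause was not tested. CD80 lost its call without combination replicate 2, RHBDL3 and IL2RA without combination replicate 3, and ADAMTS7 without MI-3454 replicate 3; MCL1 lost its call under 8 of 21 alternatives. Replicate numbers did not pair the libraries: of 18 same-numbered pairs 6 correlated above 0.1 in their deviations (range -0.393 to 0.386), and 3 of 12 libraries correlated best with their own number. Libraries of other numbers did deviate alike. DMSO replicate 2, gilteritinib replicate 2, MI-3454 replicate 3 and combination replicate 1, the 4 highest in RN7SL1 in their groups, correlated with each other at 0.209 to 0.509. The cause of this shared deviation was not tested. The replicate block gave 1757 calls, 1729 of them shared. Depth limits the near-zero genes, whose lowest group holds under 30 counts.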

Other observations

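Interactions differed in sign between gene classes. Of 11487 tested protein-coding genes 676 were positive (5.88%) and 1163 negative (10.1%), with a median of -0.06 log2. Of 2386 other genes with a known class 227 were positive (9.51%) and 51 negative (2.14%), with a median of 0.39 log2. Sense intronic transcripts, which lie inside introns of other genes, had 18 positive and no negative calls among 177 tested (median 0.80 log2), and lincRNAs 52 positive and 16 negative among 507. Reads outside annotated exons were highest in the combination libraries (28.5 to 36.5%), and their part in this split was not tested.

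CCND1, which encodes cyclin D1, summed to 180 counts in DMSO, 218 with gilteritinib, 23 with MI-3454 and 3 with the combination (interaction -3.17 log2), the largest value among 13 tested D cyclins and cell cycle inhibitors, of which 4 were negative. TRAC, the constant segment of the T cell receptor alpha chain, summed to 504, 1079, 119 and 24 counts (-3.49 log2). Of 16 tested FOXO targets 5 were negative and none positive: BNIP3 (-1.17), CITED2 (-1.11), IRS2 (-1.07), CCNG2 (-0.62) and KLF6 (-0.52 log2). The count of negative FOXO targets was 3 without gilteritinib replicate 1 or 3, MI-3454 replicate 1, or combination replicate 2 or 3, and with total counts as the scaling. The count of negative D cyclins and inhibitors was 2 without MI-3454 replicate 1, and 9 with limma voom and quality weights or without the 4 libraries highest in RN7SL1. CCND1 lost its call without MI-3454 replicate 1 or combination replicate 1, and CCNG2 under 10 of 21 alternatives.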
